A study of Aspergillus nidulans with 24 samples.

Results

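In Aspergillus nidulans, 99 of the 8728 genes of the deposited table were high on fructose and low on glucose in the wild type, and stayed near their wild type level on fructose when areB was deleted. They were chosen from the authors' means of normalized counts, with 5 added to each mean. A gene entered when the lower wild type fructose mean was at least 4 times the higher wild type glucose mean, and when the deletion mean over the wild type mean lay between 0.5 and 2 in both fructose media. The first condition alone took 324 genes, called fructose-high here, and the 99 genes that met both are called retained, 30.6% of the 324. Of the others, 204 had a deletion mean under 0.5 of the wild type in at least 1 fructose medium, 151 of them in both, and 21 had one above 2 in at least 1. Counts of genes under 0.5 or above 2 below mean in at least 1 fructose medium unless both are named. These choices fix the wild type profile and the fructose levels of the deletion strain, so those values describe the genes and are no finding. The glucose means of the deletion strain were not used in the choice.

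The study set an areB deletion strain against a wild type, each grown as mycelium for 9 to 11 hours at 37 °C in 4 media with 3 biological replicates per group, 24 libraries in all. The deletion strain carried Aspergillus fumigatus pyrG in place of areB, with the alleles pyrG89, argB2, pabaB22 and riboB2 and with nkuA replaced by argB. The wild type is given as biA1 only, so areB and the rest of the strain background cannot be told apart. The carbon source was 0.1% fructose, which the labels call non-repressing, or 1% glucose, called repressing. The nitrogen source was 5 mM urea, called non-repressing, or 10 mM ammonium tartrate, called repressing. Kind and amount of sugar cannot be told apart, nor can ammonium and tartrate. The mycelium was measured in bulk, so fewer cells that use a gene and less RNA per cell cannot be told apart. The authors listed areB at 0 in all 4 deletion groups and between 67.9 and 93.9 in the wild type groups.

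Glucose shuts down many fungal genes for other carbon sources, a control known as carbon catabolite repression. Its DNA-binding repressor in this fungus is CreA. Some pathways also need their own activator, as the ethanol genes need AlcR, and are switched on fully only when repression is lifted and an inducer is present. AreB is a GATA-type transcription factor, related in its DNA-binding domain to the nitrogen activator AreA.

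The levels are the authors' group means, which come with no spread between libraries, and no difference between fructose and glucose was tested. The biological replicates are as the labels name them. The authors' test of deletion over wild type, DESeq2 being the one testing tool named in the submitters' notes, gave an adjusted p for 92 of the 99 genes. On fructose none of the 92 passed 0.05, against 2.22% of 8639 genes with urea and 2.51% with ammonium, and nothing is read from this, since the rule held these values near the wild type. In the authors' deposited table the adjusted p of retained genes went no lower than 0.75 with urea and 0.62 with ammonium, and no recovered unadjusted p was under 0.05. Standard errors recovered from these p-values had a median of 0.76 on the log2 scale in each fructose medium, over 82 genes with urea and 89 with ammonium. With urea, AN3876 had a log2 fold change of -0.16 in the authors' deposited table and a standard error, recovered here, of 0.43. Only for this gene, in this medium, did the log2 fold change with its 95% interval stay within 1 of 0. Within 2 of 0 lay 63 of 82 genes with urea and 74 of 89 with ammonium. The interval reached past a 2-fold change in both directions for 53 genes with urea and 60 with ammonium, and in 1 direction for 28 and 29. Being retained therefore describes means. The intervals hold only if fold changes and p-values come from the same fit, which was not tested.

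**Figure D1:**
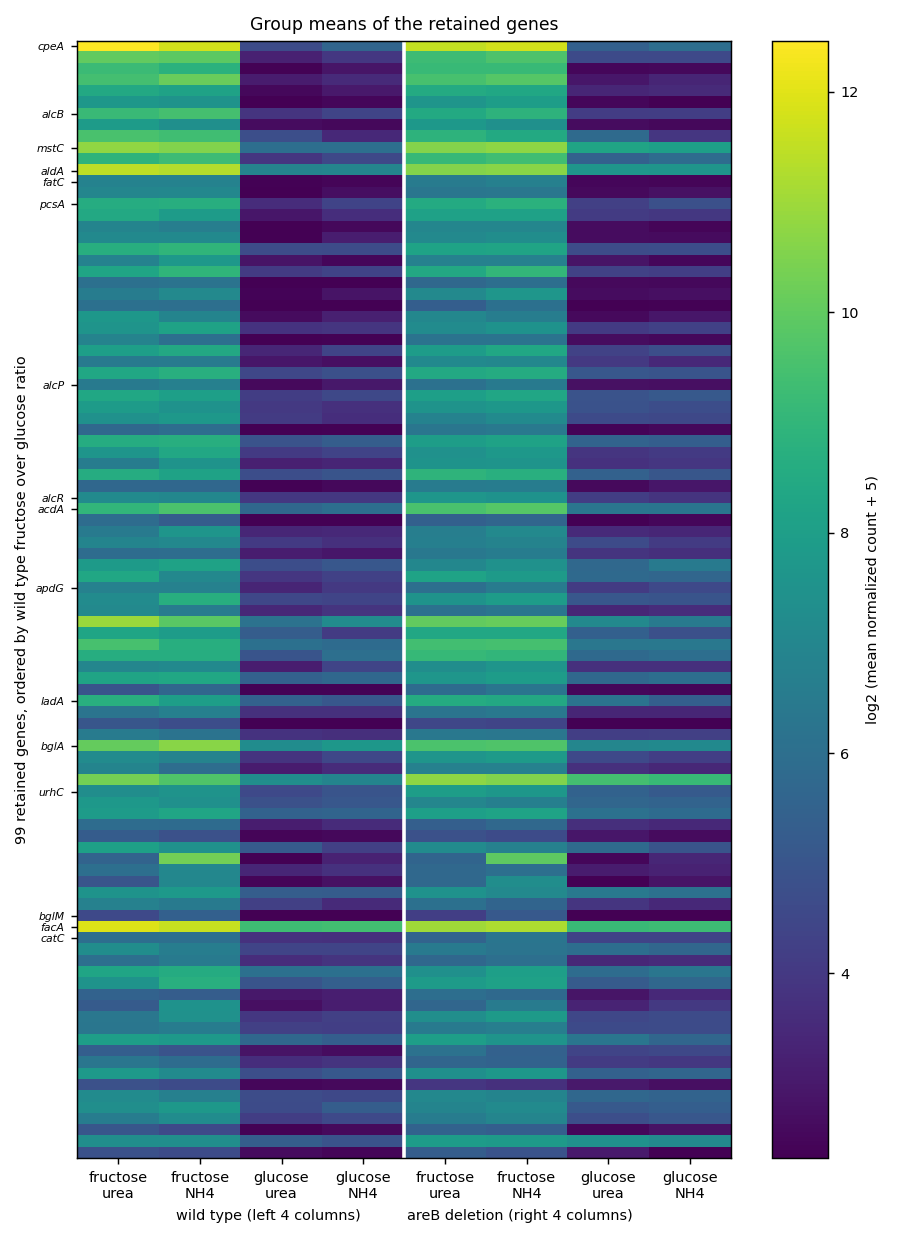
Each row is 1 of the 99 retained genes, ordered from the largest wild type fructose over glucose ratio at the top, each column is a group, and colour gives log2 of the mean normalized count with 5 added. The fructose columns are brighter than the glucose columns in both strains, as chosen in the wild type, and the row of AN1792 in the lower part is by far brightest on fructose with ammonium.

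The ethanol genes that were fructose-high were all retained. Of the 7 genes of the ethanol and aldehyde list in the table, 3 were fructose-high, namely aldA, alcB and alcP. None of these 3 lay under 0.5 or above 2. The aldehyde dehydrogenase gene aldA, whose product turns acetaldehyde into acetate, had authors' means of 2766 and 2506 on fructose with urea and with ammonium in the wild type, and 109.5 and 116 on glucose. In the deletion strain aldA stood at 1546 and 1607 on fructose and at 197 and 192 on glucose, so its fructose means were lower and its glucose means higher than in the wild type. The gene of alcohol dehydrogenase II, alcB, had wild type means of 584 and 702 on fructose and 9.44 and 15.8 on glucose. In the deletion strain they were 348 and 463 on fructose and 12.4 and 12.8 on glucose. Beside alcR on the chromosome, alcP, a putative gluconolactonase gene, had 84.7 and 101 on fructose and 1.06 and 2.77 on glucose in the wild type, and 64.7, 82.7, 1.91 and 1.63 in the deletion strain.

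The activator gene of this pathway was retained as well. The wild type means of alcR were 141 and 126 on fructose and 10.5 and 10.6 on glucose, nearly the same with either nitrogen source. In the deletion strain alcR had 193 and 177 on fructose and 13.0 and 9.58 on glucose. The neighbouring alcohol dehydrogenase gene alcA, the best known target of AlcR, was not among the fructose-high genes, with wild type means of 157 and 79.0 on fructose and 4.60 and 41.0 on glucose. Its deletion means were 953 and 716 on fructose, outside the bounds that alcR, alcB, aldA and alcP met. The listed genes alcM and alcS were not fructose-high either, and were higher on fructose in the deletion strain. From wild type means of 0.715 and 0.990, alcM had 17.6 and 8.10. From 1.62 and 4.96, alcS had 26.1 and 13.9. The last listed gene, alcC, was higher on glucose than on fructose in both strains.

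Acetate activation gave a further member, facA, the gene of acetyl-CoA synthetase, which the fungus needs to grow on acetate. Its authors' means were 3878 and 3096 on fructose and 638 and 660.1 on glucose in the wild type, against 2079.6, 2393, 588 and 611 in the deletion strain. Of the 13 measured genes of acetate use, the glyoxylate cycle and gluconeogenesis, 4 were fructose-high, and facA alone was retained. The other 3, acuE, acuF and mcsA, had deletion means under 0.5 of the wild type on fructose. They encode malate synthase, phosphoenolpyruvate carboxykinase and methylcitrate synthase. The related pcsA, a putative acetyl-CoA synthase gene with a predicted role in the methylcitrate pathway, was retained, with 381 and 401 on fructose against 7.21 and 15.5 on glucose in the wild type. Deletion means of pcsA were 365 and 435 on fructose and 14.1 and 22.7 on glucose.

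Acyl-CoA and fatty acid metabolism held 13 of the retained genes by words in the authors' descriptions, which can take in genes of another kind. They were 13.1% of the retained genes, against 1.88% of the table and 9.88% of the fructose-high genes, and of 32 fructose-high genes with these words 19 lay under 0.5. The 13 include facA, pcsA and apdG. The putative fatty acyl-CoA synthetase gene fatC had 107 in each fructose medium and 0.201 and 0.449 on glucose in the wild type. Without areB fatC had 89.2 and 101 on fructose and stayed below 1 on glucose. AN4659, a putative acyl-CoA synthetase gene, had 1032 and 959 on fructose and 4.44 and 10.8 on glucose in the wild type, and 607, 782, 19.2 and 18.4 in the deletion strain. AN4201, of the same description, had 482, 612, 9.69 and 17.8 in the wild type and 554, 647, 39.0 and 54.2 in the deletion strain. Both had higher glucose means in the deletion strain with either nitrogen source. The acyl-CoA dehydrogenase domain gene acdA had 504 and 767 on fructose in the wild type and 742 and 886 in the deletion strain, with 47.1 to 74.9 on glucose over both strains. Of 18 measured genes named for fatty acid oxidation and peroxisomes, 5 were fructose-high and none was retained.

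Sugar uptake was represented by mstC, the gene of a high-affinity glucose transporter of germinating conidia. Its wild type means were 1764 and 1485 on fructose and 58.2 and 60.7 on glucose. The deletion means of mstC were 1536 and 1697 on fructose, but they stood at 299 and 259 on glucose, above both wild type glucose means. The hexose transporter gene hxtA, the other fructose-high member of the 10 listed sugar and polyol transporters, was not retained, with 1854 and 1359 on fructose in the wild type and 540 and 536 in the deletion strain. A sugar transporter gene induced by xylose, AN8400, had 90.7 and 182 on fructose in the wild type and 182 and 184 in the deletion strain.

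Transporters were 18 of the 99 by words in the descriptions, or 18.2%, against 5.61% of the table and 12.7% of the fructose-high genes. Of the 41 fructose-high genes with these words 18 were retained, 15 lay under 0.5 and 8 above 2. AN8467, a predicted transmembrane transporter gene, had 342 and 283 on fructose and 0.802 and 3.16 on glucose in the wild type, and 367, 328, 5.75 and 6.47 in the deletion strain. AN8912, whose orthologs import myo-inositol, had 202 and 179 on fructose in the wild type, 190.3 and 244 in the deletion strain, and was at or below 0.641 in all 4 glucose groups. The amino acid transporter gene AN1659 had 736 and 651 on fructose and 22.3 and 6.36 on glucose in the wild type, and 470.5, 348, 51.7 and 10.3 in the deletion strain. All 3 had a wild type fructose over glucose ratio of at least 20, as had 13 of the 99 genes.

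Enzymes for pentoses, glycosides and pectin were few. The only fructose-high gene among 12 of pentose, galactose and polyol catabolism was ladA, for L-arabinitol dehydrogenase, at 419 and 249.8 on fructose in the wild type and 374 and 345 in the deletion strain. On glucose ladA had 39.7 and 28.9 in the wild type and 67.7 and 37.4 in the deletion strain. The beta-glucosidase gene bglA had 1054 and 1613 on fructose and 149 and 199 on glucose in the wild type. Its deletion means were 773 and 815 on fructose and 122 and 134 on glucose, and its mean ratio over both glucose media was the lowest of the 99 genes. A second putative beta-glucosidase gene, bglM, had 18.4 and 38.7 on fructose in the wild type and 13.3 and 30.5 in the deletion strain, and was listed at 0 in all 4 glucose groups. The pectin side chain hydrolase gene urhC had 153, 180, 18.9 and 26.3 in the wild type and 244, 203, 40.3 and 31.4 in the deletion strain, in the same order of media. Of 50 listed genes for plant polysaccharides and starch 4 were fructose-high, and of these bglA was retained, 2 lay under 0.5 and 1 above 2. By descriptions, 3 of 11 fructose-high genes of this kind were retained.

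Oxidoreductases formed the largest group drawn by words, 23 of the 99 genes or 23.2%, against 8.27% of the table and 15.7% of the fructose-high genes. Of 51 fructose-high genes with these words 28 lay under 0.5. The alcohol dehydrogenase gene AN2860 had 683 and 1134 on fructose and 3.64 and 6.57 on glucose in the wild type, with 718, 884, 2.55 and 5.29 in the deletion strain. The catalase-peroxidase gene cpeA, whose product breaks down hydrogen peroxide, had the largest wild type ratio of all retained genes, 70.1 with 5 added. Its wild type means were 5635 and 3505 on fructose and 20.1 and 45.1 on glucose, and its deletion means 2929, 3438, 37.6 and 57.6. Another catalase gene, catC, was far nearer the bound, at 57.5 and 59.8 on fructose and 8.50 and 8.20 on glucose in the wild type, and 41.6, 71.3, 15.4 and 15.7 in the deletion strain. No other of the 20 listed genes for trehalose, stress and redox was fructose-high. Of 22 listed genes of secondary metabolite clusters 1 was fructose-high and retained, apdG of the aspyridone cluster, with 103 and 104 on fructose and 5.25 and 11.0 on glucose in the wild type, and 60.7, 87.9, 11.9 and 18.4 in the deletion strain.

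Genes for DNA-binding regulators were 10 of the 99, or 10.1%, against 5.99% of the table and 8.33% of the fructose-high genes. Of 27 fructose-high genes with these words 17 lay under 0.5. Each of the 10 had a ratio of at least 4 in the deletion strain, as had 71 of the 99 retained genes. The rule held the fructose side of that ratio near the wild type. Besides alcR all of the 10 are known by number only. The largest ratio among them was that of AN6747, a predicted zinc-binding transcription factor gene, with 116 and 95.8 on fructose and 0 and 0.819 on glucose in the wild type. Without areB AN6747 had 121 in each fructose medium and glucose means of 1.26 and 0.543. AN8930, with the same predicted activity, had the largest urea over ammonium ratio of the 99 genes on fructose in the wild type, with 322 with urea and 128 with ammonium there, and 291 and 224 in the deletion strain. Glucose means of AN8930 were 10.1 and 14.7 in the wild type against 50.1 and 46.1 in the deletion strain. Of the 17 measured regulators of carbon use 3 were fructose-high, and only alcR was retained. The repressor gene creA was fructose-high itself, at 302 and 411 on fructose against 42.1 and 62.1 on glucose in the wild type. In the deletion strain creA had 88.2 and 72.9 on fructose. Neither drop passed the authors' test, with an adjusted p of 0.30 with urea and 0.058 with ammonium.

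Some pathways that were fructose-high had no retained member. Over all 324 fructose-high genes 63.0% lay under 0.5 in at least 1 fructose medium, and 151 genes did in both. Lists with few fructose-high genes therefore say little. All 9 fructose-high genes of the 21 listed for amino acid, amide and lactam use had a deletion mean under 0.5 of the wild type in at least 1 fructose medium, and all but otaA in both. Both fructose-high genes of 9 for autolysis and proteases, and both of 24 for conidiation and sexual development, lay under 0.5 in both media. The 5 esterase and lipase genes drawn by words did so too, except plcB, which lay under 0.5 with urea and at 0.513 with ammonium. None of 16 urea and purine genes was fructose-high. Words for proteases drew 7 fructose-high genes, creA and xprG among them, which encode regulators, and 1 was retained, AN1320, a predicted serine peptidase gene, with 48.6 and 56.5 on fructose in the wild type and 73.1 and 80.8 in the deletion strain. No list at all held 33 of the 99 genes, among them AN8351 and AN10898, whose wild type ratios were 60.4 and 25.7. AN10898 had 233 and 159 on fructose and 1.39 and 0.819 on glucose in the wild type, and 207, 163, 1.25 and 0.794 in the deletion strain.

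**Figure D2:**
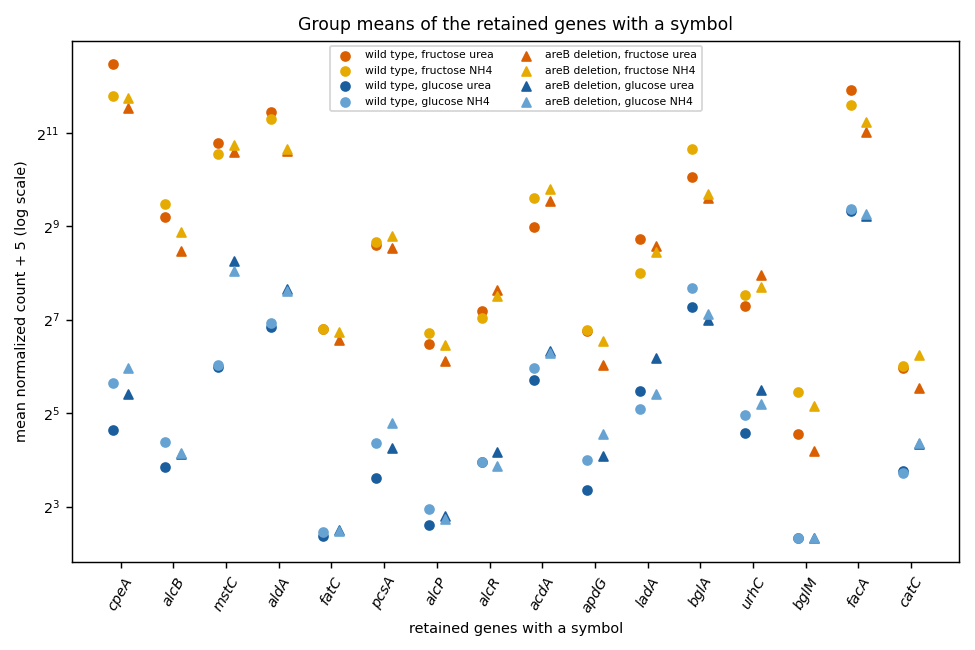
Each column is 1 of the 16 retained genes with a symbol, circles give wild type and triangles deletion group means with 5 added on a log axis, and colours give the medium. Fructose points lie above the glucose points for every gene in both strains, and mstC is the gene whose deletion glucose points, 299 and 259, stand farthest above its wild type ones.

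The glucose means of the deletion strain, not used in the choice, show how far these genes stayed low on glucose without areB. In the deletion strain the lower fructose mean was at least 4 times the higher glucose mean for 71 of the 99 genes, or 71.7%, against 1.88% of all genes. The fructose side of that ratio was held near the wild type by the rule, so little can be read from the share of all genes. The median log2 fructose over glucose ratio of the retained genes was 2.98 with urea and 3.04 with ammonium in the deletion strain, and 3.34 and 3.22 in the wild type, where the rule set it. Over all genes the deletion medians were 0.05 and 0.04. Of the 164 genes of the table that met the ratio of 4 in the deletion strain, 71 were retained, 63 were fructose-high in the wild type without being retained, and 30 were not fructose-high in the wild type.

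The other 28 genes lay below 4 in the deletion strain, and all of them had a wild type ratio under 8. For 16 of these the higher glucose mean accounted for more of the difference between strains on the log2 scale, and for 12 the lower fructose mean did. The rule bounded the fructose means of the deletion strain and chose low wild type glucose means, while the deletion glucose means were free. Under that bound a gene with a wild type ratio of 8 or more could fall below 4 only by a rise on glucose. The split of 16 to 12 and the ratios under 8 were therefore shaped by the rule and only describe the genes. The lowest ratio in the deletion strain was 1.17, for AN3218, and this gene and AN0539 are named after their values were seen. AN3218 had 150.3 and 92.6 on fructose and 15.9 and 16.4 on glucose in the wild type, against 83.0, 69.4, 58.6 and 45.3 in the deletion strain, so its carbon source groups nearly met. AN0539 had 225 and 284 on fructose and 21.1 and 28.9 on glucose in the wild type, against 126, 170.1, 49.5 and 82.0. At the other end AN8351, described only by orthologs, had the largest ratio in the deletion strain, 97.0, with 562 and 561 on fructose and 0.604 and 0.840 on glucose.

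**Figure D3:**
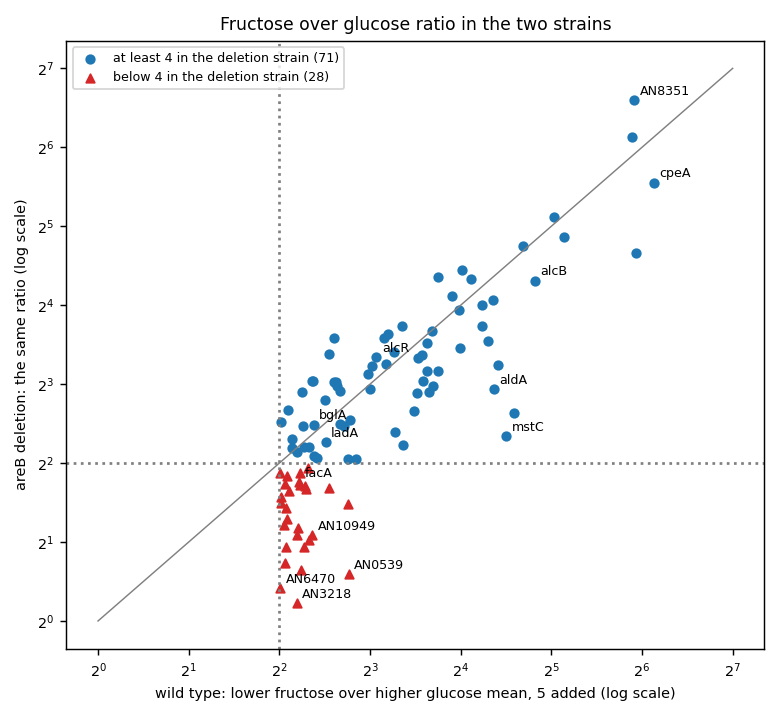
Each point is 1 of the 99 retained genes, by the lower fructose over the higher glucose mean with 5 added, in the wild type on the horizontal and in the deletion strain on the vertical log axis, with dotted lines at 4 and a line of equality. The 71 circles are at or above 4 in the deletion strain and the 28 triangles below it, with AN3218 lowest at 1.17 and AN8351 highest at 97.0.

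On glucose the deletion means of retained genes lay above the wild type means more often than below. With urea this held for 79 of 99 genes, against 50.0% of all genes, and with ammonium for 68 of 99, against 47.5%. Of the 324 fructose-high genes, the retained ones included, it held for 233 with urea and 199 with ammonium. Of the 151 genes under 0.5 in both fructose media it held for 94 and 81. The median log2 ratio of deletion over wild type with 5 added was 0.49 with urea and 0.24 with ammonium, against 0.00 and -0.02 over all genes. From the fold changes of the authors' deposited table the medians were smaller, 0.31 and 0.10, against 0.00 and -0.02 over all genes. The rule chose genes with low wild type glucose means, which are the divisor here. Its part in these counts and medians was not tested. Among the 151 genes under 0.5 in both fructose media the medians from means were 0.15 and 0.01, and the difference between these sets was not tested. A ratio of at least 2 was reached by 14 genes with urea, against 4.42% of all genes, and by 9 with ammonium, against 3.51%. Of the 324 fructose-high genes, the retained ones included, 36 reached it with urea and 29 with ammonium. Of the 151 genes, 12 did in each medium, so such rises also occurred outside the retained genes. The share was larger among the 99 retained genes, at 14.1% with urea and 9.09% with ammonium, and this difference was not tested.

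The authors' test called 2 of 92 retained genes on glucose when urea was the nitrogen source, or 2.17% against 1.88% of all genes, and 2 of 92 with ammonium, against 1.91%, so the share was near that of all genes. These were AN6470 and AN10949 in both media, and both rose in the deletion strain. The rule chose low wild type glucose means, the divisor of these fold changes, and its part in these calls was not tested. AN6470, annotated as a protein with lysozyme activity, had glucose means of 34.8 and 25.0 in the wild type and 170.2 and 130.5 in the deletion strain. Its log2 fold change was 2.05 ± 0.49 with urea (adjusted p 0.0029) and 2.13 ± 0.50 with ammonium (adjusted p 0.0019), values of the authors' deposited table beside standard errors recovered here. The fructose over glucose ratio of AN6470, 4.03 in the wild type, was 1.33 in the deletion strain. AN10949, with orthologs that are ATP-driven drug transporters, had glucose means of 154 and 113 in the wild type and 689 and 559.9 in the deletion strain. Its log2 fold change was 1.88 ± 0.53 with urea (adjusted p 0.025) and 1.99 ± 0.53 with ammonium (adjusted p 0.013). On fructose AN6470 stood at 0.54 ± 0.48 and 0.50 ± 0.48 and AN10949 at 0.33 ± 0.53 and 0.76 ± 0.53. These fold changes and adjusted p are also of the authors' deposited table, and the standard errors after ± were recovered here. The difference between carbon sources was not tested, since the rule bounds the fructose values.

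Next to these, mstC had a log2 ratio of 2.26 with urea and 2.01 with ammonium on glucose, the third largest of the 99 by the mean of both, without passing the authors' test. After it came AN2604, at 1.54 and 1.86 from wild type means of 2.19 and 1.32, and AN8930, at 1.87 and 1.38. The lowest by the mean of both were near 0, -0.27 and -0.55 for bglA and -0.29 and -0.50 for AN10487, a predicted transporter gene. No retained gene reached -1 in either glucose medium, which with 5 added is out of reach where the wild type mean is under 5. Many glucose levels were near 0, with both wild type means under 5 for 32 of the 99 genes and listed at 0 for 5, so ratios of those genes depend on the constant added.

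**Figure D4:**
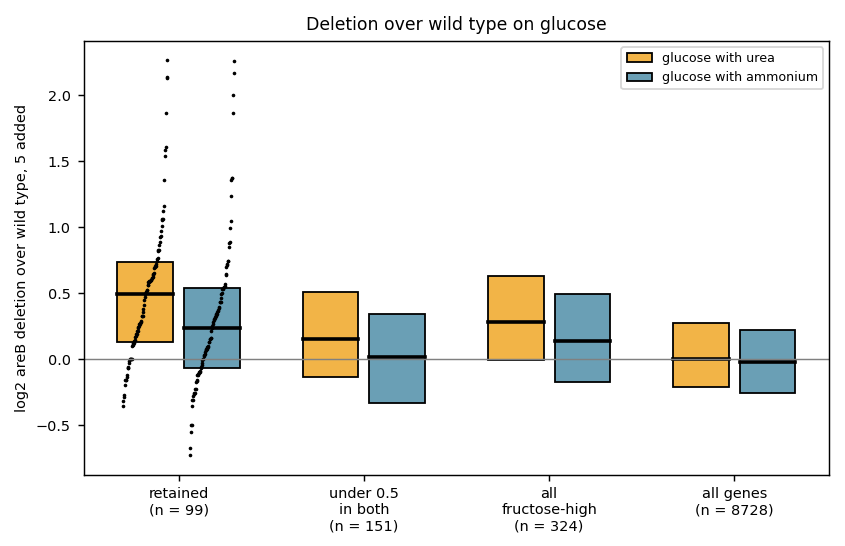
Boxes span the first to the third quartile of the log2 deletion over wild type ratio on glucose with 5 added, thick lines are medians, colours give the nitrogen source and dots are the 99 retained genes in rank order. The median of the retained genes is 0.49 with urea and 0.24 with ammonium, against 0.15 and 0.01 for the 151 genes under 0.5 in both fructose media.

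On fructose the nitrogen source separated about the same share of retained genes as of all genes by 2-fold or more. The rule used the fructose means of both strains, so the shares and medians below describe the genes and are no finding. On fructose the median log2 ratio of urea over ammonium was 0.01 in the wild type and -0.16 in the deletion strain, against -0.02 over all genes in each strain. In the wild type 9 of 99 genes differed at least 2-fold, against 6.74% of all genes, and in the deletion strain 2 of 99 did, against 1.47%. Within 1.5-fold were 68 retained genes in the wild type, against 81.5% of all genes, and 90 in the deletion strain, against 93.2%. The largest difference was that of AN1792, a predicted ester hydrolase gene with a role in lipid metabolism, with 42.3 on urea and 1263 on ammonium in the wild type, and 43.2 and 977 in the deletion strain. AN4829, a putative reductase gene, had 27.2 and 125 in the wild type and 49.1 and 150.4 in the deletion strain. These 2 genes made up the 2-fold set of the deletion strain. The adjacent genes AN2665 and AN2666, a predicted transporter and a putative xylulose reductase, had 143 against 401 and 33.0 against 175 in the wild type, and 179 against 237 and 45.8 against 86.9 in the deletion strain. In the other direction AN1677, a xylose-induced short-chain dehydrogenase gene, had 1952 on urea and 930.3 on ammonium in the wild type, and 1033 and 1082 in the deletion strain.

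**Figure D5:**
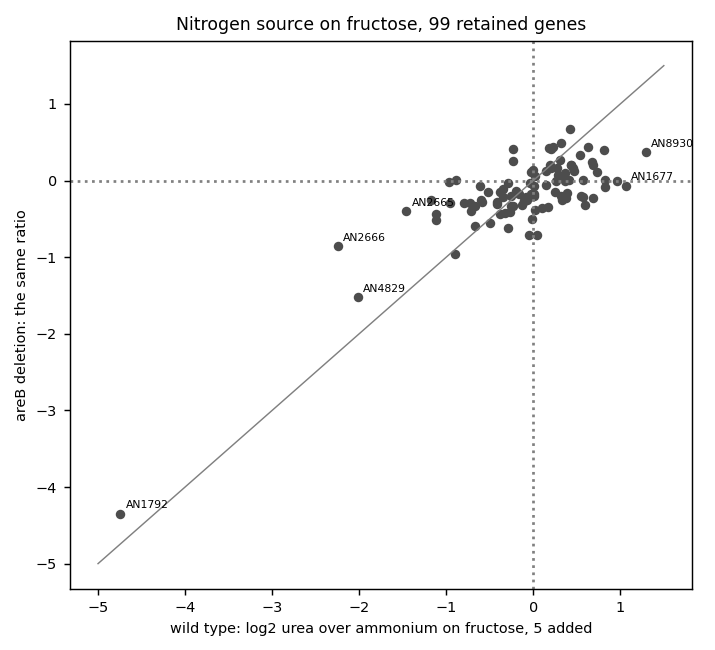
Each point is 1 of the 99 retained genes, by its log2 ratio of urea over ammonium on fructose with 5 added, in the wild type on the horizontal and in the deletion strain on the vertical axis, with a line of equality. Most points lie near 0 on both axes, and AN1792 lies at -4.75 in the wild type and -4.35 in the deletion strain.

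RefSeq's ASM1142v1 assembly gave the order of genes along the chromosomes, and 98 of the 99 genes were found in it. Next to another retained gene lay 10 of them, 10.2%, against 1.84% of all 8257 matched genes. The 5 pairs were alcP with alcR, AN2665 with AN2666, AN3220 with AN3221, AN8502 with AN8503, and AN0783 with AN0784. AN3220 and AN3221, both predicted transporter genes, had 307 and 379 on fructose with urea in the wild type and 346 and 483 in the deletion strain. The gene beside AN3221, AN3222, was fructose-high too, with 422 and 453 in the wild type, but had 103 and 129 in the deletion strain. AN8502 and AN8503 had 135 and 84.8 on fructose with urea in the wild type and 132 and 97.2 in the deletion strain.

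At the borders of the rule, AN6418, AN6470 and AN11212 had the smallest wild type ratios among the retained genes, 4.02, 4.03 and 4.04, and AN11009, gprN and AN20052 fell just short with 3.98, 3.95 and 3.93. The lower deletion over wild type ratio was 0.507 for AN10959 and bglA and 0.510 for AN2666, and 0.498, 0.497 and 0.497 for AN7246, AN2466 and AN7074 just outside. The higher ratio was 1.97 for AN1947 and AN4424 and 1.95 for AN8400, and 2.22, 2.27 and 2.29 for mcdA, AN1109 and AN5763 beyond the bound. The 7 retained genes without an adjusted p were fatC, bglM, AN5762, AN3205, AN10358, AN5274 and AN2544, so the authors' test says nothing of them.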

How the data were processed

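RNA depleted of ribosomal RNA was sequenced as paired reads. The submitters' processing notes name FastQC, Trimmomatic and GATK, then HTSeq in version 0.9.1 and (by the submitters) DESeq2 in version 1.16.1, with no role or order given. The aligner, genome build and annotation are unknown, as not given in the sources used here. The authors deposited 1 table with a mean of normalized counts per group (a signal), a fold change per medium (a ratio of deletion over wild type) and a p-value adjusted over genes. Values and depths per library were not used here, so their precision is unknown.

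Ratios were computed from means with 5 added (pandas 2.3.3, numpy 2.4.6, scipy 1.17.1). The deposited fold change was nearer to 1 than the ratio of the means for 88.3% to 91.3% of genes by medium. Genes were called where the authors' adjusted p was under 0.05, over 8639 genes. Each p was recovered by inverting the Benjamini-Hochberg step-up, and the standard error is the log2 fold change over its normal deviate, given where ties fix the deviate within 10%, and checked on simulated data. This takes the p as a Wald p of the same fit, which the files do not state. The simulated data were made that way, so they check the inversion only. Whether the deposited fold changes and p-values meet this was not tested. On glucose 86 of 92 genes had an adjusted p of 1. Named genes were those with a symbol, called, next to each other, at the borders of the rule, or extreme in a ratio, and members of the lists. The members and lists were chosen with earlier results of these data known, and the word lists for transporters, acyl-CoA and glycosidases were widened or narrowed afterwards.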

Additional observations from a re-analysis of the deposited data

How the results depend on the processing

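Of 41 alternative values 27 stayed within 1.5 times the count or 0.1 of the log2 median reported, and none turned direction. The number of retained genes was 162 with a ratio of at least 3, 43 with at least 8, and 51 with the deletion held within 1.5-fold. At an adjusted p under 0.01, 1 gene was called on glucose with urea and 1 with ammonium. The median deletion over wild type on glucose with urea was 0.70 with 1 added, 0.33 with 10 added, 0.31 from the authors' deposited table, and 0.63 over the 40 genes with both wild type glucose means of at least 10, added after seeing the data. With ammonium it was 0.10 from the authors' deposited table. The median fructose over glucose in the deletion strain was 3.31 with urea and 3.55 with ammonium with 1 added, and 2.47 and 2.82 with 10 added. No paired analysis was possible because the table holds group means and no value per replicate, and leaving out a replicate was likewise not run. Depth per library is unknown here.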
